A study of Homo sapiens with 6 samples.

Results

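NEUROG2 and the neural basic helix-loop-helix (bHLH) transcription factors around it were followed in SH-SY5Y cells. The genes were NEUROG2, NEUROD1, NEUROD4, NHLH1, NHLH2, HES6, TCF3, TCF4 and TCF12. They were chosen by symbol, with results of the same comparison already known, so their differences between the groups are given as a description and without p-values. Of these 9 genes, 8 were found among the 28862 listed genes, 7 passed the filter on low counts, and the expression of NEUROD4 is not analysed here. Of the 8, NHLH1 was too low to be tested. The lists of related genes used below were also chosen with earlier results of these data known. Adjusted p-values printed for list genes come from the same fit and are a description, not an independent test.

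SH-SY5Y is a human neuroblastoma line, derived from a tumour of the sympathetic lineage, often used in place of neurons. Polyadenylated RNA was sequenced from 3 libraries of cells given a control plasmid and 3 whose label is SMN1 overexpression, named the SMN1-labelled libraries from here on; the labels name no other treatment, time or clone. The series asks how raised SMN1 alters the transcriptome of this line. The labels give no separate cultures for the libraries of a group, so a p-value reflects the spread among 3 libraries a group, and that spread may be technical.

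Proteins of the bHLH family bind DNA as dimers at the E-box, CANNTG. Tissue-restricted activators such as NEUROG2 and NEUROD1 pair with the broadly expressed E proteins encoded by TCF3, TCF4 and TCF12, and in the embryo NEUROG2 commits progenitors of the cortex, spinal cord and sensory ganglia to a neuronal fate. ID proteins, which lack the DNA-binding basic region, hold E proteins in inactive dimers, and HES1, an effector of Notch signalling, represses proneural genes.

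SMN1 itself did not follow its label. It was at 20.04, 20.4 and 19.6 CPM, read counts scaled to a common library size, in the control libraries and at 14.8, 16.6 and 16.6 CPM in the SMN1-labelled libraries (log2 fold change -0.32, SE 0.06, edgeR adjusted p = 9.40e-05). SMN2, its near-identical paralog, shares reads with it and fell too (log2 fold change -0.30, edgeR adjusted p = 0.00310), a call lost with a correction for gene length (adjusted p = 0.0625) and on unfiltered log2(FPKM + 1) values (limma adjusted p = 0.0546). The 6 libraries held 30379242 to 40275498 reads assigned to genes. Of 15829 genes tested, 56.2% were called at an edgeR adjusted p of at most 0.05, 4426 (28.0%) higher and 4466 (28.2%) lower in the SMN1-labelled libraries. On FPKM, fragments scaled by gene length and library depth, with a 0.5 FPKM filter and a pseudocount of 1, the split was 4967 higher and 2965 lower. Markers of adrenergic neuroblastoma were abundant, summing to 26735 to 28524 CPM in the control, against 33997 to 35264 CPM in the SMN1-labelled libraries. The granins CHGA (13926 and 15440 CPM) and CHGB (7761 and 13386 CPM) made up most of both sums, and 6 of the 11 markers tested were called lower. The adrenergic marker TH, the rate-limiting enzyme of catecholamine synthesis, was almost absent, at 0.169 ± 0.122 CPM in the control against 0.0201 ± 0.0174 CPM in the SMN1-labelled libraries.

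Because members of 1 family can share reads, the coding sequences of all 9 genes were compared in windows of 150 nt, the read length. The pairs printed here are NEUROG2 with NEUROD1, and NHLH1 with NHLH2, the closest pair of all. They are read from GENCODE v29 transcripts (GRCh38), in the coding direction, with the bases that differ within a pair in capitals. NEUROG2 (chr4:112514970-112515119, minus strand) and NEUROD1 (chr2:181678388-181678537, minus strand) matched at 109 of 150 bases (72.7%) in their best window, which lies in the bHLH-coding stretch of each gene. NHLH1 (chr1:160370942-160371091, plus strand) and NHLH2 (chr1:115838007-115838156, minus strand) matched at 137 bases (91.3%).
NEUROG2: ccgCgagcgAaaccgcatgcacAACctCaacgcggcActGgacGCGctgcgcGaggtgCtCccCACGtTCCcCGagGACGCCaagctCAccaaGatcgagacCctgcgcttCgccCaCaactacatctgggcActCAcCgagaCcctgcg
NEUROD1: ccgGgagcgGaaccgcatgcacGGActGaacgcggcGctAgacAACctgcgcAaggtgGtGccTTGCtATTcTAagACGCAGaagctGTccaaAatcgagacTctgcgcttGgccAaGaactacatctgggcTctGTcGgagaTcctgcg
NHLH1: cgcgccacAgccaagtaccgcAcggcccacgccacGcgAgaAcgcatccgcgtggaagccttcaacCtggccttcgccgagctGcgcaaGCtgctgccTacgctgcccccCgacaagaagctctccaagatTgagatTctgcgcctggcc
NHLH2: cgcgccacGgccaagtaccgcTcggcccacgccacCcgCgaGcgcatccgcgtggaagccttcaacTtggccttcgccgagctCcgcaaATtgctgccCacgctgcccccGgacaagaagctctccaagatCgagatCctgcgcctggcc
Over all 36 pairs of coding sequences the longest exact run was 24 nt, in NHLH1 and NHLH2, and no window of 150 nt was the same in a pair.

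The stretches of 250 bases upstream of the NEUROG2 and NEUROD1 start sites are shown because these are the proneural genes called higher. They are from RefSeq (GRCh38.p14), written in the direction of transcription, with the motif TATAA in capitals. The NEUROG2 stretch is chr4:112516181-112516430 on the minus strand and the NEUROD1 stretch is chr2:181680518-181680767 on the minus strand.
NEUROG2 upstream: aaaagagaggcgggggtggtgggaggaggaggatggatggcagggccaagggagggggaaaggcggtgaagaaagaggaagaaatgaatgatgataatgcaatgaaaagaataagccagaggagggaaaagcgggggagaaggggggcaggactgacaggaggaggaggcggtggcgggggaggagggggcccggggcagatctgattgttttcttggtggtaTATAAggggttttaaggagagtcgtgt
NEUROD1 upstream: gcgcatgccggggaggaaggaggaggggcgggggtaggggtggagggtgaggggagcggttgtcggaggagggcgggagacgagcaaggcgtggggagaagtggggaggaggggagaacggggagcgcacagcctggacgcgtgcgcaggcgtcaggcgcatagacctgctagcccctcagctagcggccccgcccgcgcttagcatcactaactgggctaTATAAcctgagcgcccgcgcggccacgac
TATAA began 27 bases before the start site of NEUROG2 and 29 bases before that of NEUROD1. Searched in the direction of transcription in the last 50 bases, it was present in 4.74% of 35116 RefSeq windows of this length. It was there in 4 of the 23 windows of the 9 genes, including that of HES6, which was not called, and 1 of TCF4. The E-box, CANNTG, which reads alike on both strands, was absent from both stretches and present in 61.8% of all windows. The E-box was present in 12 of the 23 windows of the 9 genes, including the single windows of HES6, NHLH1 and NEUROD4. It was absent from the single window of TCF3, which was not called.

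NEUROG2 was the member with the largest difference. Its level was 54.8, 59.3 and 56.3 CPM in the control libraries, against 219.6, 203 and 203 CPM in the SMN1-labelled libraries. Each SMN1-labelled library was over 3 times as high as any control library, and the groups did not overlap. The means were 56.8 ± 2.27 and 208.5 ± 9.61 CPM (SD, n = 3), a 3.67-fold rise (log2 fold change 1.88, SE 0.04). Among all tested genes, 6 were called higher with a fold change at least this large, NEUROG2 included (0.0379%). The gene lies at chr4:112513516-112516172 on the minus strand (GRCh38, GENCODE v29). In a culture measured in bulk, fewer cells of a type and less RNA per cell cannot be told apart, so a level is an average over all cells of a library.

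In FPKM, which allows genes to be compared per length, NEUROG2 was at 22, 23.8 and 22.1 in the control libraries, against 92.4, 85.8 and 86.5 in the SMN1-labelled libraries. It ranked 1582 to 1696 among 28501 genes in the control libraries, against 433 to 463 in the SMN1-labelled libraries. Among 28 listed bHLH activators and members in the control group, the highest were HAND2, TWIST1 and HAND1, factors of the sympathetic and mesodermal lineages, at 526, 322 and 198 FPKM. TCF3 followed at 41.9 ± 1.57 FPKM. HES6 at 23.0 ± 1.47 and NEUROG2 at 22.6 ± 1.0 FPKM did not differ beyond their spread. In the SMN1-labelled group NEUROG2 at 88.3 ± 3.64 FPKM stood above TCF3 at 44.5 ± 1.61 and HES6 at 23.2 ± 1.87 FPKM. Its rank among the 28 went from 5 to 7 in the control libraries to 4 in each SMN1-labelled library.

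**Figure D1:**
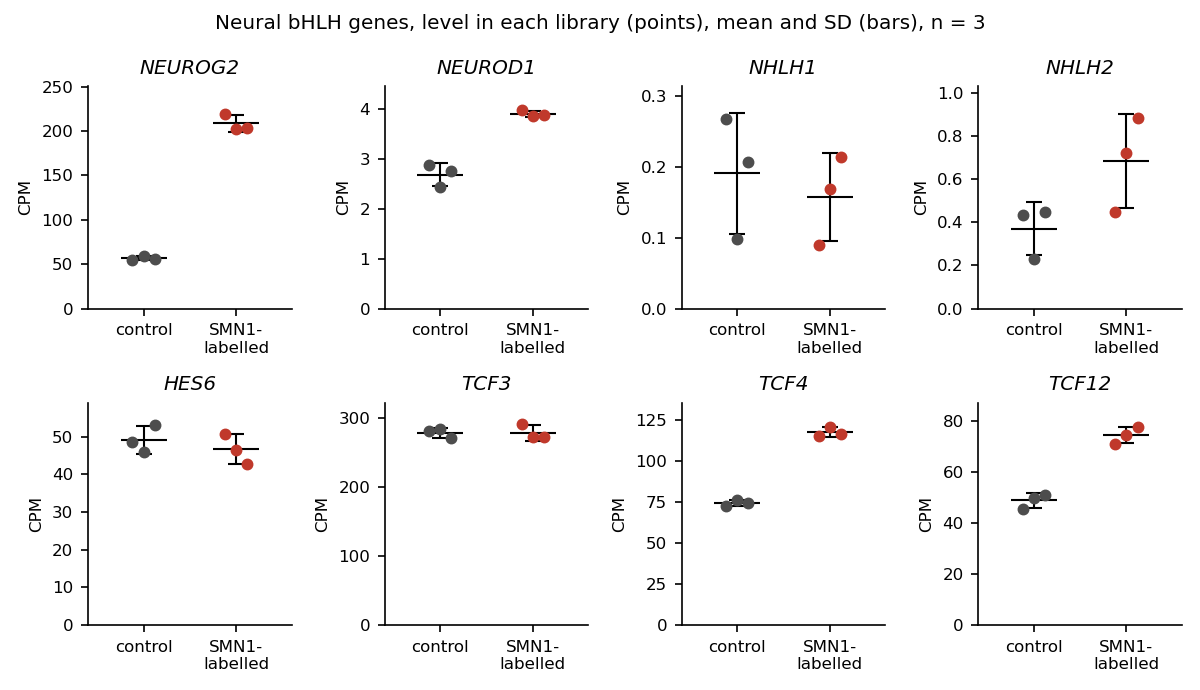
Level of each of the 8 genes found, in CPM on axes that start at 0 and differ between panels. Points are the 6 libraries, and the horizontal mark and bar are the mean and SD of 3. NEUROG2 is at 54.8 to 59.3 CPM in the control and 203 to 219.6 CPM in the SMN1-labelled libraries. NEUROD1, TCF4 and TCF12 are also separated, while HES6, TCF3, NHLH1 and NHLH2 overlap.

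Of the 7 members tested, 5 were called higher (NEUROG2, NEUROD1, NHLH2, TCF4 and TCF12), none was called lower, and HES6 and TCF3 were not called, where 28.0% of all tested genes were called higher. The groups did not overlap for 4 of the 7, where they did not overlap for 60.7% of all tested genes. The members were chosen with this comparison known, so nothing is read from these counts.

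NEUROD1 acts after the neurogenins and drives terminal differentiation. Its level was low, at 2.86, 2.42 and 2.76 CPM in the control libraries, against 3.97, 3.85 and 3.86 CPM in the SMN1-labelled libraries. Each SMN1-labelled library lay above each control library. The means of 2.68 ± 0.229 and 3.89 ± 0.0679 CPM gave a 1.45-fold rise (log2 fold change 0.54, SE 0.13), from 74 to 86 reads in a control library and 127 to 160 in an SMN1-labelled one. In FPKM the gene stood at 0.297 in the control against 0.463 in the SMN1-labelled group, far under NEUROG2. The counts and FPKM imply that NEUROD1 was divided by a length of about 8708 nt, where its GENCODE v29 exons cover 3312 nt. Its FPKM are therefore lower than the exonic length would give. Its difference was 0.17 on the log2(FPKM + 1) scale without a filter, a scale that understates changes of low genes.

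NHLH1 and NHLH2, bHLH factors of newly born neurons, were close to the limit of detection. NHLH1 had 8, 3 and 6 reads in the control libraries, against 3, 7 and 7 in the SMN1-labelled libraries, with no separation of the groups. NHLH2 had 13, 7 and 13 reads against 15, 30 and 29, or 0.433, 0.229 and 0.448 CPM against 0.448, 0.721 and 0.882 CPM. The first SMN1-labelled library was level with the highest control library to 3 digits, and the groups overlapped. The log2 fold change of NHLH2 was 0.89 (SE 0.33), and the gene passed the filter only through the SMN1-labelled libraries. Its call was lost without the second control library (log2 fold change 0.63), without the second and without the third SMN1-labelled library (0.84 and 0.69), with DESeq2 (0.89), with the length correction (0.78), with length and GC corrected together (0.77), and on log2(FPKM + 1) without a filter (0.06).

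HES6, an atypical HES protein that counters HES1 and favours neuronal differentiation, was not called. It was at 48.5, 45.9 and 53.2 CPM in the control libraries, against 50.8, 46.4 and 42.8 CPM in the SMN1-labelled libraries. The ranges overlapped, and the means of 49.2 ± 3.71 and 46.7 ± 4.0 CPM differed by less than 1 SD (log2 fold change -0.08, SE 0.06). The direction depended on the treatment of the data: it was -0.14, and called, without the first SMN1-labelled library, and 0.29, and called, with a gene length and GC content correction that was added after the data were seen.

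Of the E proteins, the dimer partners of these factors, TCF4 and TCF12 rose and TCF3 was not called, a difference between genes that was not tested. TCF3 was the most abundant of them, at 282, 284 and 271 CPM in the control libraries, against 292, 272 and 273 CPM in the SMN1-labelled libraries. In CPM the groups overlapped, with 1 SMN1-labelled library above every control library, and the log2 fold change of 0.00 (SE 0.04) became 0.13, and called, with the length and GC correction. In FPKM, TCF3 was at 42.6, 42.95 and 40.1 in the control libraries, against 46.4, 43.5 and 43.7 in the SMN1-labelled ones, and the groups did not overlap. TCF4, which is mutated in Pitt-Hopkins syndrome, was at 72.4, 76.4 and 74.0 CPM in the control libraries, against 115, 121 and 116 CPM in the SMN1-labelled libraries. TCF12 was at 45.5, 49.8 and 51.0 CPM in the control libraries, against 70.9, 74.4 and 77.4 CPM in the SMN1-labelled libraries. Neither gene's groups overlapped: TCF4 rose 1.58-fold (log2 fold change 0.66, SE 0.04) and TCF12 1.52-fold (0.61, SE 0.05). With the length and GC correction the log2 fold changes were 0.45 for TCF4 and 0.36 for TCF12.

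TCF3 lies at chr19:1609290-1652605 (minus strand), TCF4 at chr18:55222331-55664787 (minus strand) and TCF12 at chr15:56918623-57299281 (plus strand). The counts and FPKM imply that TCF4 was divided by a length of about 30940 nt, against 10018 nt for TCF12 and 6459 nt for TCF3. This long gene model lowers TCF4 in FPKM relative to the other 2 wherever the transcripts made are shorter.

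**Figure D2:**
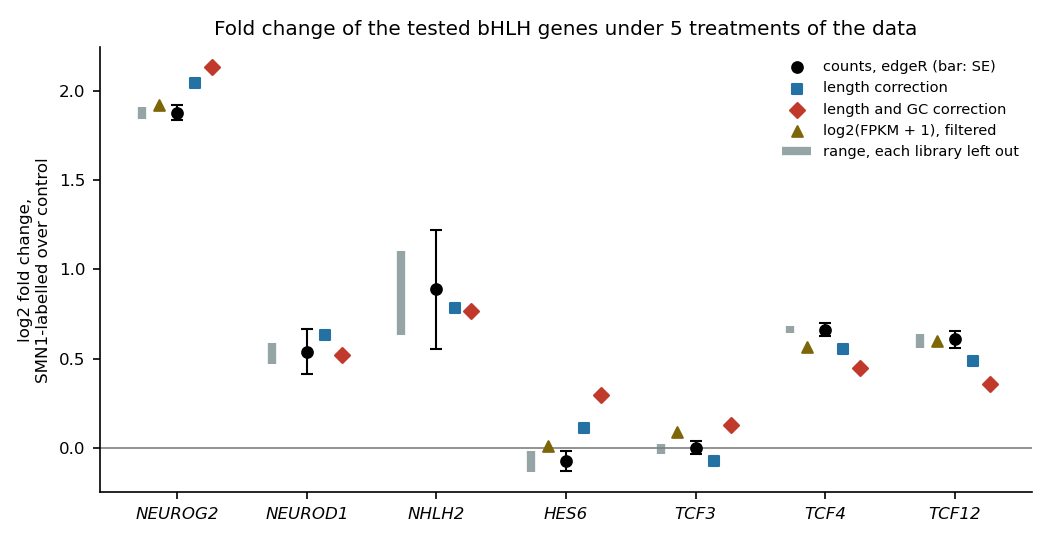
Log2 fold change (SMN1-labelled over control) of the 7 tested genes under 5 treatments of the data. Black points are edgeR estimates on counts with SE bars, coloured symbols are the corrected or FPKM values, and grey bars span the values with each library left out in turn. NEUROG2 stays between 1.84 and 2.13 over all alternatives run, while HES6 and TCF3 lie on both sides of 0.

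The mixture of E proteins differed between the groups. TCF3 made up 86.4, 85.5 and 84.8% of the summed FPKM of the 3 genes in the control libraries, against 80.7, 78.8 and 78.6% in the SMN1-labelled libraries. The share of TCF12 was 9.65 ± 0.663% in the control against 13.6 ± 0.904% in the SMN1-labelled group, and that of TCF4 was 4.76 ± 0.118% and 6.98 ± 0.320%. The groups did not overlap for the share of TCF3. By reads, which do not depend on the length given to TCF4, TCF3 made up 69.4 ± 1.06% and 59.3 ± 1.58%. The summed E proteins stood at 48.9 ± 1.53 FPKM in the control and 56.1 ± 1.22 FPKM in the SMN1-labelled group.

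NEUROG2 was also set against its possible partners. The ratio of NEUROG2 to summed E protein FPKM was 0.446, 0.473 and 0.468 in the control libraries, against 1.61, 1.56 and 1.56 in the SMN1-labelled libraries. NEUROG2 was thus below the E protein sum in every control library and above it in every SMN1-labelled library. These are ratios of RNA levels per length, and no protein was measured. They restate the NEUROG2 difference given above and give no further test.

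ID1 was at 19.0, 18.6 and 19.3 CPM in the control libraries, against 9.85, 8.27 and 8.85 CPM in the SMN1-labelled libraries, and so fell 2.12-fold (log2 fold change -1.08, edgeR adjusted p = 7.86e-12). ID2 was at 24.3, 29.3 and 26 CPM in the control libraries, against 13.3, 13.0 and 13.8 CPM in the SMN1-labelled libraries, and so fell 1.99-fold (log2 fold change -0.99, edgeR adjusted p = 1.04e-11). Neither gene's groups overlapped. ID3 (from 8.80 ± 0.876 to 6.34 ± 0.581 CPM) and ID4 (from 2.29 ± 0.0650 to 1.40 ± 0.250 CPM) fell as well (edgeR adjusted p = 0.000163 and 0.00130), and the call of ID3 was lost with the length and GC correction (log2 fold change -0.18).

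HES1, the Notch-dependent repressor of proneural genes, had 115, 144 and 129 reads in the control libraries, against 15, 35 and 26 in the SMN1-labelled libraries. Its level went from 4.33 ± 0.455 to 0.693 ± 0.214 CPM, a 6.14-fold fall (log2 fold change -2.62, SE 0.18, edgeR adjusted p = 3.00e-11). Of 15 bHLH inhibitors and repressors sought, 14 were listed and 10 tested. Of these 10, none was called higher and 7 lower, where 28.2% of all tested genes were called lower, with a median log2 fold change of -0.65, against 0.00 over all tested genes. The 3 that were not called were HEY1, BHLHE40 and BHLHE41. Of the 7 called lower, 1 passed the filter only through the control libraries, where it is higher. With the length and GC correction 4 of the 10 were called lower, and without control library 2, 1 was called higher. As the list was chosen with earlier results known, nothing is read from these counts.

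**Figure D3:**
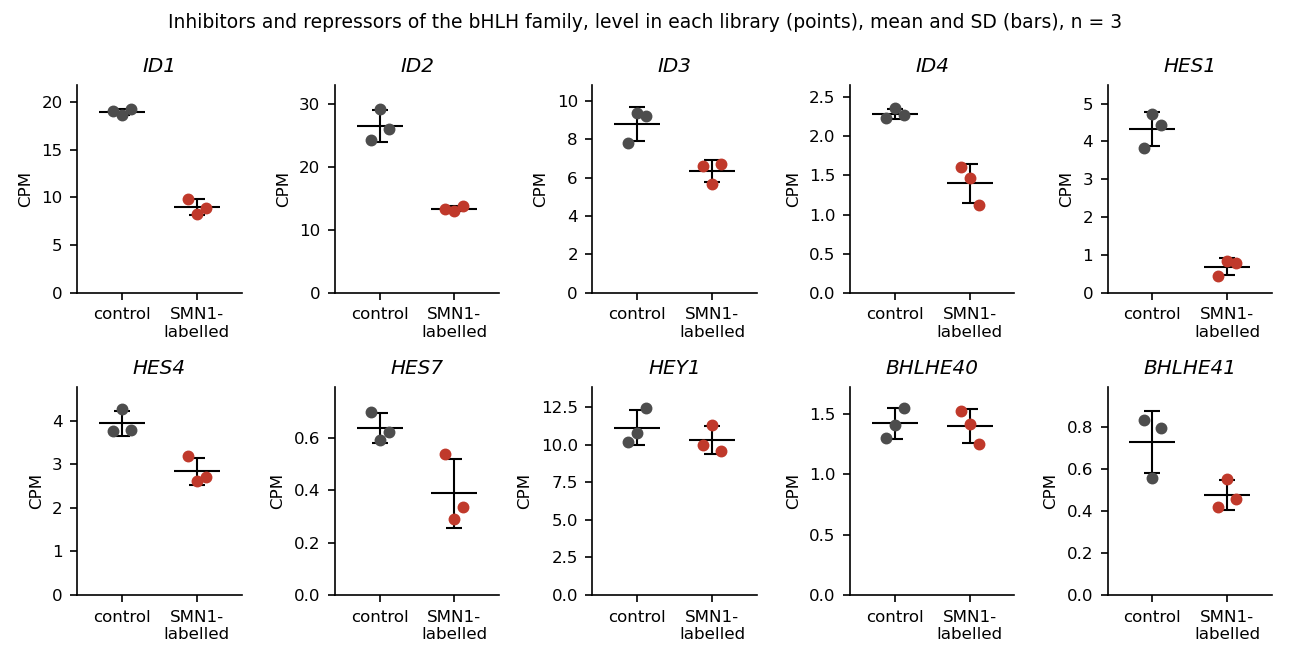
Level in CPM of the 10 tested inhibitors and repressors of the bHLH family, on axes that start at 0 and differ between panels. Points are the 6 libraries, and the horizontal mark and bar are the mean and SD of 3. ID1, ID2 and HES1 are lower in all 3 SMN1-labelled libraries, and HEY1 and BHLHE40 overlap.

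Set against the RNA of the ID genes, the RNA of the E protein genes and of NEUROG2 was higher in the SMN1-labelled libraries. The summed FPKM of ID1 to ID4 was 30.9 ± 1.39 in the control against 17.4 ± 1.0 in the SMN1-labelled group. The ratio of summed E proteins to summed ID proteins was 1.67, 1.55 and 1.53 in the control libraries, against 3.16, 3.39 and 3.13 in the SMN1-labelled libraries. The ratio of NEUROG2 to the ID sum was 0.742, 0.734 and 0.718 in the control libraries, against 5.08, 5.27 and 4.87 in the SMN1-labelled libraries. Neither ratio overlapped between the groups. This separation follows from the levels already given, of genes chosen with earlier results known, so the ratios give no further test.

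**Figure D4:**
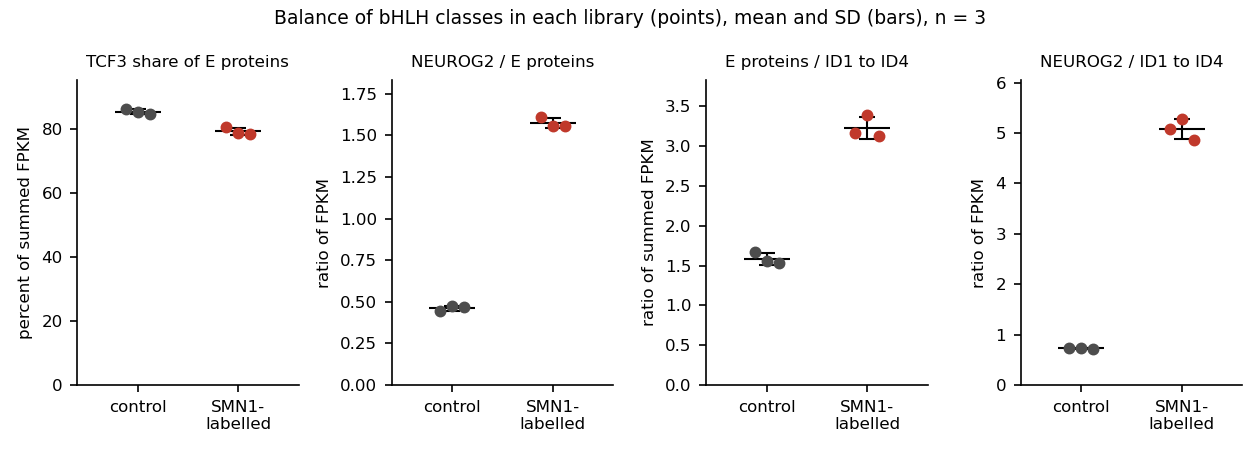
Balance of bHLH classes in each library, from FPKM. The panels show the TCF3 share of E protein FPKM in percent, and the ratios of NEUROG2 to E proteins, of E proteins to ID1 to ID4, and of NEUROG2 to ID1 to ID4. Points are libraries, and marks and bars are the mean and SD of 3. The TCF3 share falls from 85.6 to 79.4%, and the 3 ratios are higher in every SMN1-labelled library.

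Of 30 other tissue-restricted bHLH activators sought, 20 were listed and 9 tested. Of these 9, 2 were called higher and 5 lower, where 28.0% of all tested genes were called higher and 28.2% lower. Their median log2 fold change was -0.32. The list was chosen with earlier results known, so nothing is read from its counts. They turned to 4 higher and 3 lower with the length and GC correction. Without control library 3 or SMN1-labelled library 2 or 3, 3 were called lower, and without control library 1 or 2 or SMN1-labelled library 1, 1 was called higher. TCF15, a factor of the paraxial mesoderm, fell from 11.7 ± 0.682 to 6.0 ± 0.733 CPM (log2 fold change -0.97, edgeR adjusted p = 2.81e-09). LYL1, a factor of blood progenitors, fell from 7.31 ± 0.742 to 4.41 ± 0.673 CPM (log2 fold change -0.72, edgeR adjusted p = 8.13e-06). TWIST1, which acts in mesenchyme, fell from 704 ± 17.7 to 565 ± 37.0 CPM (log2 fold change -0.32, edgeR adjusted p = 3.23e-07), but was not called with the length and GC correction (log2 fold change -0.02). HAND1 rose from 369 ± 4.12 to 425 ± 10.7 CPM (log2 fold change 0.20, edgeR adjusted p = 1.57e-05).

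Of 25 known targets of the neurogenins and NEUROD factors sought, 23 were listed and 14 tested. Of these 14, 3 were called higher and 3 lower, where 28.0% of all tested genes were called higher and 28.2% lower. Their median log2 fold change was 0.06, and nothing is read from these counts about the targets as a set. The count called higher was 5 without SMN1-labelled library 3, on filtered FPKM and with the length correction, and 6 with length and GC, while 1 was called lower on unfiltered FPKM. ELAVL3 and ELAVL2, neuronal RNA-binding proteins, rose from 616 ± 8.99 to 754 ± 37.5 CPM and from 3.62 ± 0.422 to 5.20 ± 0.478 CPM (log2 fold changes 0.29 and 0.53, edgeR adjusted p = 2.65e-07 and 0.000520). SRRM4, a neuronal splicing regulator, rose from 27.3 ± 1.18 to 36.2 ± 0.475 CPM (log2 fold change 0.41, edgeR adjusted p = 9.55e-08). STMN2, a regulator of microtubules in growing axons, fell from 804 ± 12.9 to 651 ± 7.77 CPM (log2 fold change -0.31, edgeR adjusted p = 2.04e-08). DLL3, a Notch ligand, fell from 9.34 ± 0.878 to 7.21 ± 0.420 CPM (log2 fold change -0.38, edgeR adjusted p = 0.000848), a call lost with the length and GC correction (-0.06) and on log2(FPKM + 1) without a filter (-0.21).

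Of 13 cofactors of bHLH activators, 12 were tested, and 6 were called higher and 2 lower (median log2 fold change 0.19). Among the 6, LMO2 (7, 3 and 4 reads in the control libraries, against 17, 20 and 19 in the SMN1-labelled ones), passed the filter only through the SMN1-labelled libraries and was named after its values were seen. The co-repressors RUNX1T1 and CBFA2T2 rose from 8.93 ± 0.832 to 12.9 ± 0.657 CPM and from 105 ± 2.27 to 132 ± 0.799 CPM (log2 fold changes 0.54 and 0.33, edgeR adjusted p = 3.47e-06 and 2.25e-08). The acetyltransferase KAT2B rose from 3.19 ± 0.262 to 4.24 ± 0.221 CPM and the LIM-only protein LMO1 fell from 24.1 ± 1.17 to 18.9 ± 0.717 CPM (edgeR adjusted p = 0.00495 and 1.17e-05). Both of these calls were lost with the length and GC correction (log2 fold changes 0.25 and -0.07). LMO4 was called lower (log2 fold change -0.43, edgeR adjusted p = 0.0417), but its groups overlapped. That call was lost with DESeq2, on log2(FPKM + 1) without a filter, and without control library 1 or 3 or SMN1-labelled library 2 or 3.

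NEUROG2 protein is phosphorylated by cyclin-dependent kinases and by GSK3, and CDK inhibitors relieve the former. All 10 genes sought for these activities were tested, and 3 were called higher and 2 lower (median log2 fold change 0.07), where 28.0% of all tested genes were called higher and 28.2% lower. With the length correction 7 were called higher (median 0.18), and on filtered FPKM 5. CCNB2 and CCNB1, mitotic cyclins, fell from 83.3 ± 0.880 to 64.0 ± 1.76 CPM and from 136 ± 5.14 to 112 ± 1.28 CPM (edgeR adjusted p = 9.08e-09 and 4.49e-07). CDKN1A, a CDK inhibitor, rose from 64.6 ± 0.164 to 82.1 ± 0.207 CPM and GSK3B from 34.8 ± 1.36 to 44.4 ± 1.33 CPM (edgeR adjusted p = 2.26e-08 and 5.13e-07). CDK1 was called higher with overlapping groups (log2 fold change 0.24, edgeR adjusted p = 0.00797). The CDK1 call was lost without the first or second control library (0.20 and 0.15), without the second SMN1-labelled library (0.19), with the length and GC correction (0.09) and on log2(FPKM + 1) without a filter (0.28).

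Of 14 factors of sensory neuron determination, the lineage that neurogenins specify in the neural crest, 8 were tested, and 3 were called higher and 1 lower (median log2 fold change 0.18). Of the 8, 1 passed the filter only through the control libraries, and none was called lower with DESeq2, on FPKM, with the 1 CPM filter, or without control library 2 or 3 or SMN1-labelled library 1 or 3. EYA1, a transcriptional coactivator, rose from 28.5 ± 1.81 to 42.7 ± 2.58 CPM (log2 fold change 0.58, edgeR adjusted p = 2.07e-09). The homeodomain factors DRGX and ISL1 rose from 14.2 ± 0.248 to 20.8 ± 0.880 CPM and from 86.9 ± 1.35 to 101 ± 2.34 CPM (edgeR adjusted p = 3.16e-08 and 1.30e-05). ISL1 is also an adrenergic marker.

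Markers of other cell types were given the same treatment. Over all tested genes 28.0% were called higher and 28.2% lower, and no shift in cell state is read from the marker counts. Of 10 mesenchymal neuroblastoma markers, all tested, 2 were called higher and 5 lower, 1 of the 10 passed the filter only through the control libraries, and their summed level was 303 to 309 CPM in the control, against 183 to 189 CPM in the SMN1-labelled libraries. VIM, an intermediate filament protein, was the largest part of that sum and fell from 189 ± 3.25 to 92.6 ± 1.49 CPM (log2 fold change -1.03, edgeR adjusted p = 8.96e-17). Adrenergic markers were called in both directions, 4 higher and 6 lower of 11 tested. CHGB, a granin of secretory granules, rose from 7761 ± 243 to 13386 ± 97.2 CPM, and PHOX2A, a determinant of the sympathetic lineage, fell from 196 ± 5.09 to 149.95 ± 5.56 CPM (edgeR adjusted p = 2.99e-15 and 3.67e-09). The PHOX2A call was lost with the length and GC correction (log2 fold change -0.01). Schwann and glial markers summed to 3.93 to 5.51 CPM and 2.40 to 2.84 CPM, with 6 of 8 listed, 3 tested and 2 lower. Epithelial markers summed to 4.49 to 5.69 CPM and 2.42 to 3.05 CPM, with 4 of 5 listed, 3 tested and 2 lower, of which KRT14 passed the filter only through the control libraries. Blood markers reached at most 0.0983 CPM in sum, and none was tested. The part of these marker differences in the levels of the bHLH genes was not tested.

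The genes whose profile over the 6 libraries was most like that of NEUROG2 were sought among 10367 tested genes with at least 5 CPM in either group. Likeness was measured as the root mean square difference of log2 CPM after centring each gene on its control mean. The nearest was CBLN4, a cerebellin secreted at synapses, at 13.6 CPM in the control against 55.1 CPM in the SMN1-labelled group (difference 0.118). LAMA3, a laminin chain (3.63 and 11.1 CPM), ANKRD1, an ankyrin repeat protein (11.0 and 32.2 CPM), PHLDA1 (3.53 and 10.4 CPM) and NYAP2 (2.70 and 7.94 CPM) followed, with differences of 0.213, 0.244, 0.251 and 0.251. The search picks genes by this difference between the groups, so it gives no test.

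The neighbours of NEUROG2 on chromosome 4 had smaller changes than NEUROG2. NEUROG2-AS1, a non-coding gene on the opposite strand at chr4:112515385-112546881, shares 92 of its 952 exonic nt with the exons of NEUROG2. It had 92, 73 and 82 reads in the control libraries, against 165, 193 and 132 in the SMN1-labelled libraries (log2 fold change 0.72, SE 0.13, edgeR adjusted p = 5.00e-05). The sources used here do not give the strand setting of the counting, so reads in the shared stretch cannot be told apart.

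Among the 3 nearest listed genes towards lower coordinates, TIFA, an adaptor of innate immune signalling, rose from 2.91 ± 0.254 to 4.06 ± 0.327 CPM (log2 fold change 0.48, edgeR adjusted p = 0.00217). ALPK1, a kinase upstream of TIFA, was not called (log2 fold change -0.39, edgeR adjusted p = 0.336), and RTEL1P1 was too low to be tested. Towards higher coordinates ZGRF1 was not called (log2 fold change -0.02, edgeR adjusted p = 0.902), and RPL23AP94 and H3P14 were too low to be tested. A window of 400 kb to either side, chosen after its values were seen, held 9 tested genes besides NEUROG2. Of these 9, 5 were called higher, 1 lower and 3 not called, where 28.0% of all tested genes were called higher and 28.2% lower. As the window was chosen with its values seen, nothing is read from these counts. The largest changes upward among the 9 genes, NEUROG2-AS1 (0.72), ANK2 (0.63) and AP1AR (0.63), were less than that of NEUROG2 (1.88).

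**Figure D5:**
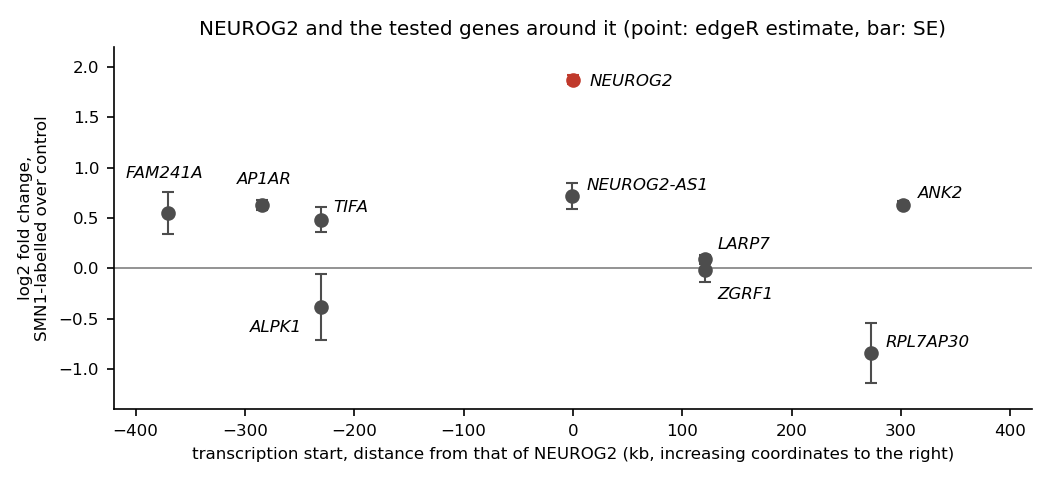
Log2 fold change (SMN1-labelled over control, edgeR estimate with SE bars) of NEUROG2 and the 9 tested genes within 400 kb, against the distance of their start sites from that of NEUROG2 in kb. NEUROG2 is at 1.88, and the other genes lie between -0.84 and 0.72.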

How the data were processed

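RNA from 6 SH-SY5Y libraries, 3 with a control plasmid and 3 labelled SMN1 overexpression, was made into stranded libraries and sequenced as paired 150 nt reads, per the labels. The submitters' processing notes name HISAT2, DESeq2 and the build GRCh38, without versions. The sources used here do not give the counting tool, its strand setting or the annotation release. The deposited table of whole-number read counts per gene covers 28862 genes, and the deposited FPKM table, scaled by gene length and depth, covers 28501. A floor of 3 reads corresponds to 0.0721 to 0.103 CPM, which covers counting error only. Libraries of 1 group differed beyond counting noise (chi-square divided by its degrees of freedom, 2.52 to 4.40), so each was kept as a sample.

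Counts were tested with edgeR 4.0.16 in R 4.3.3 (TMM, default filterByExpr, quasi-likelihood test, two-sided, group only, Benjamini-Hochberg, adjusted p at most 0.05). CPM are relative to TMM-scaled library sizes, and each standard error is the size of the log2 fold change divided by the root of its F statistic. The fit was tested on simulated data. The members and gene lists were chosen with earlier results of these data known. The genes named are all members, SMN1 and SMN2, up to 5 called genes per list with the largest absolute log2 fold change and at least 1 CPM in a group, the 5 profiles most like NEUROG2, and the antisense gene and 3 nearest listed genes on each side. TH, CHGA, LMO2, KRT14, HEY1, BHLHE40, BHLHE41, HAND2, ANK2 and AP1AR were named after their values were seen, and not every item under this rule is reported here. Gene positions, length and GC content came from GENCODE v29 (15663 of 15829 tested genes).

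Alternatives were DESeq2 1.42.0, limma-voom and limma 3.58.1 on log2(FPKM + 1) or log2(FPKM + 0.1) at 0.5 FPKM or more, the former also unfiltered. Others were DESeq2 or upper-quartile factors, no filter or 1 CPM in 3 libraries, the replicate block, leaving out each library and a length correction. A length and GC correction was added after seeing the data.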

Additional observations from a re-analysis of the deposited data

How the results depend on the processing

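NEUROG2, NEUROD1, TCF4 and TCF12 kept their direction and call in every alternative that tested them, with log2 fold changes of 1.84 to 2.13, 0.17 to 0.63, 0.45 to 0.72 and 0.36 to 0.68. NHLH2 lost its call with DESeq2 (0.89), on log2(FPKM + 1) without a filter (0.0585), and with the length correction (0.78) and the length and GC correction (0.77), and ranged from 0.63 to 1.1 with each library left out. HES6 turned to 0.0107 on log2(FPKM + 1), filtered or not, to 0.0111 on log2(FPKM + 0.1), to 0.11 with the length correction and to 0.29 with length and GC, and ranged from -0.14 to -0.0161 with each library left out. TCF3 was at -0.000875 with DESeq2, -0.000362 with limma-voom, -0.000879 with DESeq2 size factors, -0.0153 with upper-quartile factors, -0.0110 with the 1 CPM filter, -0.0735 with the length correction, 0.13 with length and GC, and -0.0330 to 0.0198 with each library left out. The genes called lower numbered 2965, 2963 and 2883 on FPKM (pseudocount 1, pseudocount 0.1, no filter), against 4466 on counts. Over the 6 bHLH-related lists together, 17 of 62 tested genes were called higher (15 to 24 over the alternatives) and 20 lower (13 to 21, the 13 on log2(FPKM + 1) without a filter). Over all tested genes 28.0% were called higher and 28.2% lower. The lists were chosen with earlier results known, so nothing is read from these counts. List by list, the ranges of genes called higher and lower were 1 to 4 and 3 to 6 for other activators (4 and 3 with length and GC), 0 to 1 and 4 to 7 for inhibitors, 3 to 6 and 1 to 4 for targets, 5 to 7 and 1 to 3 for cofactors, 2 to 7 and 2 to 3 for the kinases, cyclins and inhibitors, and 3 to 4 and 0 to 1 for sensory factors. The median of the other activators turned to 0.00727 with length and GC, and that of the targets to -0.0497 with the length correction. Of 889 values of 50 other named genes under the alternatives, 860 kept direction and call, 25 lost the call, 1 gained it (ZGRF1, -0.28 with length and GC), and 3 turned, all of ZGRF1 (0.00244 without a filter, 0.0388 without the first SMN1-labelled library, from a range of -0.0600 to 0.0388 with each library left out, and 0.0169 on log2(FPKM + 1) without a filter). The cause of these changes was not tested. Over all tested genes, libraries with the same replicate number did not deviate together from their group means (r = 0.00528, 0.0133 and 0.00300). The labels do not say whether the numbers pair the samples, and these values cannot settle it. With the replicate block 4326 genes were called higher and 4382 lower, and no member's call changed. Depth limits NHLH1 and NHLH2, at 3 to 30 reads a library.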
